A study of Mus musculus with 9 samples.

Results

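Naive CD8 T cells from the spleen of wild-type mice were stimulated for 6 h on plate-bound antibodies to CD3 and CD28 (4 µg/mL) with D-2-hydroxyglutarate or with L-2-hydroxyglutarate (D-2HG and L-2HG) in the medium from the start, each at 20 mM. The 3 libraries of D-2HG were set against the 3 of L-2HG, 6 of the 9 libraries of the series. The other 3 libraries were stimulated cells of the same kind left without either compound (control). Genotype, tissue, cell type, stimulus and time were therefore shared by all groups, and the compound was the labelled difference. RNA was primed at the poly(A) tail, amplified and sequenced, and the measure is the number of reads per gene. Of 55011 gene symbols in the table, 10235 passed the filter on low counts and were tested. The question was which transcripts separated the enantiomers and which stood at the same level with both. Nothing in the labels ties a replicate to its own mouse or culture; the p-values given here rest on the spread among these libraries, which may be technical.

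D-2HG and L-2HG are mirror images: the same atoms are joined in the same order, with the opposite configuration at the carbon bearing the hydroxyl. D-2HG is made in quantity by cancer-associated mutants of isocitrate dehydrogenase, and L-2HG by side reactions of lactate and malate dehydrogenases. The dehydrogenase D2hgdh oxidises the D form. Both resemble 2-oxoglutarate, the cosubstrate of a large family of dioxygenases. Many of the genes described next answer to interferon: interferon-gamma induces genes through GAS sites, that of the transcription factor IRF1 among them, and IRF1 and related factors bind ISRE sites. Their products include the guanylate-binding proteins (GBP) and immunity-related GTPases (IRG), which attack the vacuoles of intracellular microbes.

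The promoters of genes that were lower with D-2HG than with L-2HG are shown first, because many of the GTPase genes among them carry the letters of these sites. Each line gives the 120 bases that end just before the gene's start in RefSeq (GRCm38.p6), 5′ to 3′ on the gene's strand, with capitals for the ISRE core (GAAA, any 2 bases, GAAA) and the GAS core (TTCNNNGAA), searched on both strands. A run of capitals longer than 1 core is a pair of overlapping matches. The Gbp2 window is chr3:142620543-142620662 (+), that of Igtp chr11:58199436-58199555 (+), that of Tgtp2 chr11:49064213-49064332 (-), that of Irgm1 chr11:48871421-48871540 (-), that of Gm12250 chr11:58183723-58183842 (+) and that of Irf1 chr11:53769894-53770013 (+).
Gbp2: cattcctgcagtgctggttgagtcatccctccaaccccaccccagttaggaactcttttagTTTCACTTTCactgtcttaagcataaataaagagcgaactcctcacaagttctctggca
Igtp: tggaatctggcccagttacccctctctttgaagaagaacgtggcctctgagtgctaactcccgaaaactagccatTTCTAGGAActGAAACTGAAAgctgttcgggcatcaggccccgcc
Tgtp2: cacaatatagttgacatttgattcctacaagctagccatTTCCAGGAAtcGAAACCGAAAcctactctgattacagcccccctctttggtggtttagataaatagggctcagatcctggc
Irgm1: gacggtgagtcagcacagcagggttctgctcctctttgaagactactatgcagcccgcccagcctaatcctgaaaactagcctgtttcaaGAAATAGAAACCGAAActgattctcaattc
Gm12250: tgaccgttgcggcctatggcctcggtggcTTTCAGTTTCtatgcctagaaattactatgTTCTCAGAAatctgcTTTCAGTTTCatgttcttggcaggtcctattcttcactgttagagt
Irf1: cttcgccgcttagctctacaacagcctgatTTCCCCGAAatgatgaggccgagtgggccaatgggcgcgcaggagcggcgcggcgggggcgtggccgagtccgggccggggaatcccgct
In Igtp and Tgtp2 the GAS and ISRE letters lie side by side, in Gbp2 and Irgm1 ISRE letters stand alone, and in Irf1 the GAS letters stand alone. Over the whole window of 250 bases before the start, 11 of the 16 genes lower with D-2HG that have a RefSeq promoter entry (68.8%) held the ISRE core, against 256 of 7726 tested genes with an entry (3.31%). The GAS core was found in 8 of the 16 and in 7.24% of tested genes. The windows of Igtp and Irgm2 are much alike, as are those of Tgtp1 and Tgtp2, so the 11 are not separate observations. The 14 ISRE matches began between 24 and 163 bases before the start, with a median of 56.0. The farthest is that of Gm1966, whose window (chr7:106644646-106644895) lies upstream of, and apart from, the position given for that gene below. The window of Gm12250 likewise ends before, and apart from, the annotated position of that gene (chr11:58187739-58189012). Of the 5 genes higher with D-2HG, 3 have an entry, and neither set of letters was in those windows. Neither set was in the window of Ifi47, an IRG GTPase, and Gbp4, Gbp8 and Iigp1 have no entry. A match of letters is a description, not a bound site.

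The treated libraries held 2060411 to 4139601 counts, except L-2HG replicate 2 with 562627, and the controls 1990896 to 5731885. The predicted genes Gm10800 and Gm10801, which consist largely of satellite repeat, took 0.910% to 5.35% of counts in the controls, 3.79% to 17.0% with D-2HG and 6.71% to 24.4% with L-2HG, most in D-2HG replicate 3 and L-2HG replicate 2 (24.4%, exact 95% interval 24.3 to 24.6, counting error only). Neither total (two-sided exact permutation p = 0.2, smallest possible 0.1) nor satellite share (exact permutation p = 0.6) separated the groups. Counts in olfactory, vomeronasal and trace-amine receptor genes, which T cells are not known to use, were 1075 to 1477 counts per 1e6 with D-2HG and 1604 to 3809 with L-2HG, without overlap (exact permutation p = 0.1). With satellite counts left out of the totals they were 1118 to 1755 and 1719 to 4140, which overlap (exact permutation p = 0.2). Summed CD8 T cell markers were 4130 to 4545 CPM (counts per 1e6 after TMM scaling) with D-2HG and 3642 to 5123 with L-2HG, and all 10 markers were tested. B cell markers summed to 146 to 163 CPM with D-2HG and 151 to 212 with L-2HG. Of markers of CD4 T cells, B cells, macrophages and dendritic cells, 8 were tested in all, and no member of any marker list differed between the enantiomers. NK cell, plasma cell, neutrophil, erythroid and platelet markers did not reach the filter.

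The enantiomers separated in few genes. By edgeR's quasi-likelihood test, adjusted over all tested genes by Benjamini-Hochberg, 31 genes (0.303%) had an adjusted p under 0.05: 5 were higher with D-2HG (0.0489%) and 26 were lower (0.254%). The 26 lower genes had a median log2 difference, D-2HG minus L-2HG, of -1.71, with sizes from 1.02 to 2.43. Of these 26, 20 belong to 3 lists of interferon-related genes, which hold 61 of the 10235 tested genes. Those lists were chosen with earlier results of these data known. At an unadjusted p under 0.05, 713 genes (6.97%) differed, 251 higher (2.45%) and 462 lower (4.51%) with D-2HG. Against control, 2278 genes (22.3%) differed with D-2HG and 1812 (17.7%) with L-2HG. In all 31 genes the CPM ranges of the groups did not overlap, which was so for 15.9% of tested genes. The 31 were picked by p in these same libraries, so this is a description. Leaving out 1 library gave 10 to 60 genes: 10 without L-2HG replicate 1, 15 without L-2HG replicate 3, 16 without D-2HG replicate 1 and also 16 without D-2HG replicate 2, 13 without D-2HG replicate 3 and 60 without control replicate 2. Without L-2HG replicate 2 there were 35, of which 27 were among the 31, and without both libraries of high satellite share 13, all among the 31. Every one of the 31 kept its sign in each of these fits. Since their ranges did not overlap, a left-out library could hardly reverse a sign, so this adds no support. Of the 31, 9 passed in all 9 fits with 1 library left out. Least often past the threshold were Gbp3 (1 of 9 fits), Samhd1 (2 of 9) and Cd55, Esd, Ifi47, Lsp1 and Zfand2a (3 of 9 each). After a background estimated from the sensory receptor genes was subtracted, 31 genes passed, 29 of them the same.

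**Figure D1:**
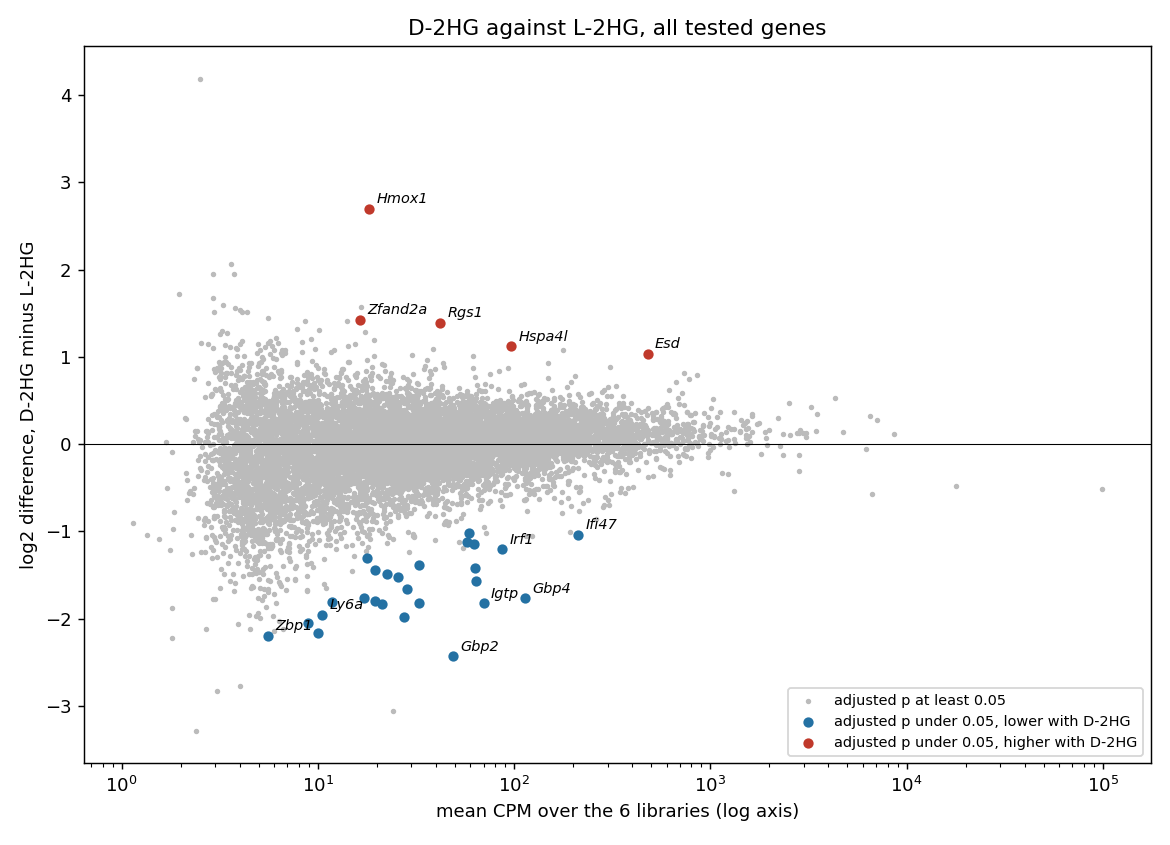
Each point is 1 of the 10235 tested genes: the horizontal axis is its mean CPM over the 6 libraries (log axis) and the vertical axis its log2 difference, D-2HG minus L-2HG. The 26 blue genes (lower with D-2HG) and 5 red genes (higher) have an adjusted p under 0.05, and the grey points narrow around 0 as the level rises.

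Gbp2, a guanylate-binding protein (chr3:142620602-142638008, plus strand), showed the largest difference of any gene past the threshold other than Hmox1. It stood at 281, 245 and 321 CPM in the controls, 16.2, 13.2 and 16.7 in the D-2HG libraries and 64.3, 84.9 and 98.9 in those of L-2HG. The 3 groups did not overlap: both compounds lowered it, and the D-2HG libraries were lowest. The log2 difference between the enantiomers was -2.43 (95% interval -2.92 to -1.94, edgeR adjusted p = 1.97e-05), 5.39-fold more with L-2HG. In RNA from a whole culture, fewer cells that express a gene and less RNA per cell cannot be told apart.

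The GTPases were lower with D-2HG as a family. Of 20 genes listed for the GBP and IRG families, 16 passed the count filter. Of those 16, 13 were lower with D-2HG than with L-2HG, against 0.254% of tested genes. The list includes the related pseudogene Gm1966 and also Gm12250, which is annotated as a processed pseudogene. It leaves out Ifi47 (-1.04), which is counted with the interferon-stimulated genes below. The median log2 difference over the 16 was -1.82 (all tested genes, 0.01), and in each of the 16 the D-2HG libraries lay below every L-2HG library, as they did in 8.13% of tested genes. The remaining 3, Gbp5, Gbp6 and Gbp9, had log2 differences of -2.07, -1.94 and -1.23 with adjusted p of 0.21, 0.084 and 0.089 by edgeR. Leaving out 1 library gave 8 to 14 of the 16: 8 without L-2HG replicate 1, 9 without L-2HG replicate 3 and also 9 without D-2HG replicate 3, 10 without D-2HG replicate 1 or 2, and 12 without L-2HG replicate 2. Without both libraries of high satellite share 10 passed.

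Igtp, an IRG protein (chr11:58199556-58207591), had 29.6, 32.0 and 32.5 CPM with D-2HG, 98.3, 80.9 and 147 with L-2HG and 306, 162 and 272 in the controls. The order of groups was that of Gbp2, with a log2 difference of -1.82 (-2.36 to -1.28) between the enantiomers (edgeR adjusted p = 0.00176). Gbp4 had another pattern, with 43.7, 46.8 and 62.3 CPM with D-2HG but 148, 253 and 132 with L-2HG against 174, 222 and 174 in the controls. L-2HG and control libraries of Gbp4 overlapped, and D-2HG was below both (-1.77, -2.27 to -1.27, against L-2HG). Irgm2 and Tgtp2 were like Gbp4: against control, the log2 changes were -1.78 and -1.86 with D-2HG, both past the threshold, and 0.06 and -0.03 with L-2HG, with adjusted p of 0.886 and 0.934 by edgeR. These comparisons with control share the same 3 control libraries.

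Over the 16 GTPases, all 16 were lower than control with D-2HG (10.5% of tested genes were), with a median log2 change of -2.51. With L-2HG, 5 were lower (8.3% of tested genes were) and 1 was higher, with a median of -0.57. The 5 were Gbp2, Gbp7, Gbp8, Igtp and Iigp1. The 1 higher gene was Gm1966, an unprocessed pseudogene related to the GTPases (chr7:106596743-106604035), with 44.6, 53.3 and 33.8 CPM with L-2HG, 21.5, 33.0 and 19.2 in the controls and 11, 7.99 and 14.0 with D-2HG. All 3 groups were apart, with the controls in the middle; L-2HG was higher than control (log2 0.82, adjusted p = 0.0478) and D-2HG lower (-1.16, adjusted p = 0.013), and the enantiomers differed by -1.98 (-2.61 to -1.36). Several of these genes are near-copies of each other (Tgtp1 and Tgtp2, the Gbp genes). Irgm2 overlaps Igtp and Gbp8 overlaps Gbp4, each pair on the same strand. How reads shared between genes were counted is not given in the sources used here, so the split of reads among them is uncertain. Chromosome 11 held 8 of the 31 genes, namely Irf1 and 7 genes of the IRG family. The share of all tested genes on that chromosome was not counted, so this gives positions only.

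**Figure D2:**
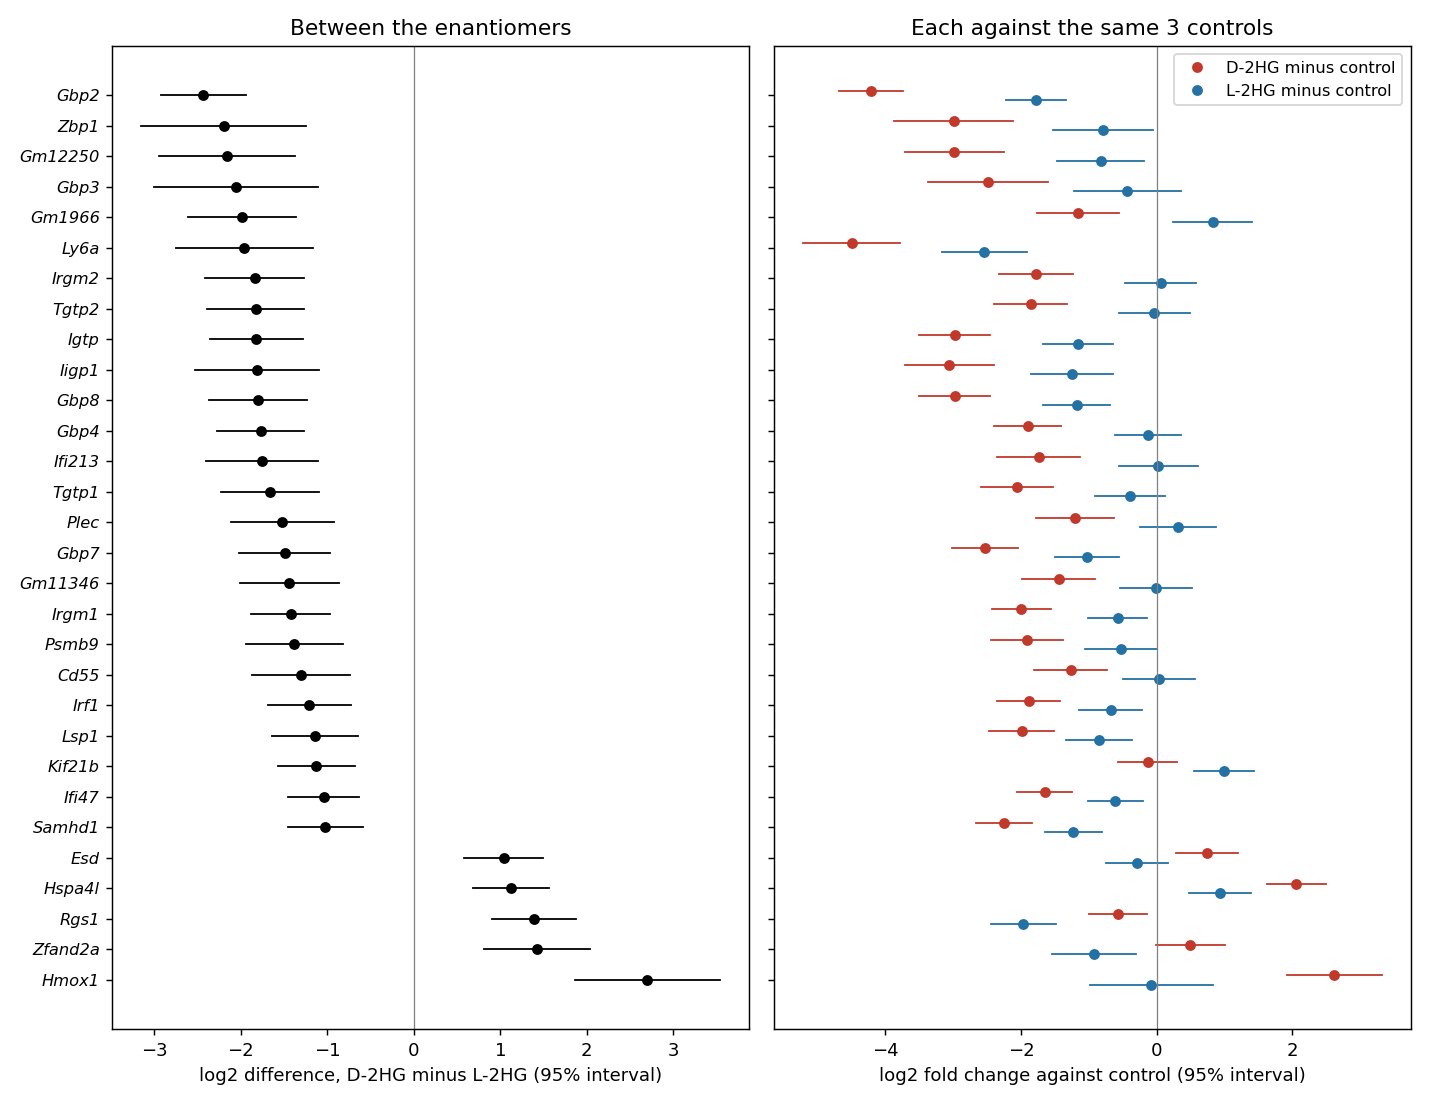
Log2 differences with 95% intervals of 30 of the 31 genes past the threshold. On the left D-2HG minus L-2HG; on the right each compound minus the same 3 controls (red D-2HG, blue L-2HG). Most genes of the upper block lie far left with D-2HG and nearer 0 with L-2HG; Gm1966 and Kif21b lie to the right of 0 with L-2HG.

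The transcription factor Irf1, a regulator of the response, differed as well. It had 47.1, 66.7 and 44.7 CPM with D-2HG against 118, 101 and 146 with L-2HG, below the 233, 151 and 205 of the controls with both compounds. The 3 groups did not overlap, and the D-2HG libraries were lowest. Its difference was -1.21 (-1.69 to -0.73). Irf9 and Stat2, which act together in the response to type I interferon, had differences of -0.41 and 0.06 and did not pass.

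Other interferon-stimulated genes were less uniform than the GTPases. Of 39 listed, 29 were tested and 6 were lower with D-2HG than with L-2HG (0.254% of tested genes were), among them Zbp1 (a nucleic acid sensor that triggers cell death), Ly6a (the surface antigen Sca-1), Irf1, Ifi47 (another IRG GTPase) and Samhd1 (a dNTP hydrolase that restricts viruses). None was higher. The median over the 29 was -0.83, and 25 of the 29 were below 0 (5022 of 10235 tested genes were), but Bst2, Ifi35, Isg20, Stat2, Ifih1 and Irf8 lay between -0.12 and 0.08. Ly6a fell furthest from control of the 6, from 131, 75.6 and 111 CPM to 2.75, 6.85 and 3.61 with D-2HG and to 17.9, 9.87 and 22.4 with L-2HG. Both compounds lowered it without overlap with control, and D-2HG more so (-1.96, -2.75 to -1.17, between the enantiomers). Nlrc5, the transactivator of MHC class I, rose with L-2HG (log2 0.95 against control, adjusted p = 0.011) and had 154, 157 and 161 CPM with D-2HG against 200, 274 and 185 with L-2HG. The D-2HG libraries of Nlrc5 lay below the L-2HG libraries, with a log2 difference of -0.46 that did not pass (adjusted p = 0.68). The count of 6 varied with the library left out: 1 of the interferon-stimulated genes passed without D-2HG replicate 1, without D-2HG replicate 3 or without L-2HG replicate 1, 2 without L-2HG replicate 3, 3 without D-2HG replicate 2, 4 without control replicate 3 and 5 without L-2HG replicate 2. Without both libraries of high satellite share 1 did.

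Among 16 genes of MHC class I presentation and the immunoproteasome, 1 was lower with D-2HG (0.254% of tested genes were). This was Psmb9, an immunoproteasome subunit, with 24.4, 16.4 and 15.4 CPM with D-2HG against 48.3, 33.6 and 59.0 with L-2HG. Those ranges did not overlap (-1.38, -1.94 to -0.82, edgeR adjusted p = 0.0204). Psmb9 passed in 5 of 9 fits with 1 library left out. Without D-2HG replicate 2 or 3, or without L-2HG replicate 1 or 3, none of the 16 genes passed. The peptide transporter subunit Tap1 (-0.65) and the subunit Psmb8 (-0.64) had D-2HG libraries below all L-2HG libraries without passing (adjusted p = 0.28 and 0.46). The class I chains H2-K1 and H2-D1 and their partner B2m had differences of 0.30, 0.07 and 0.17, with intervals of -0.16 to 0.75, -0.40 to 0.53 and -0.31 to 0.64. Ifng itself, the gene of interferon-gamma, was low: 1.38, 0.913 and 0.451 CPM with D-2HG, 2.19, 0 and 1.90 with L-2HG and 7.58, 11.6 and 5.43 in the controls. The treated groups overlapped, both were lower than control (-3.02 and -2.11), and the interval of their difference, -2.58 to 0.77, was too wide at this depth to tell the enantiomers apart.

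**Figure D3:**
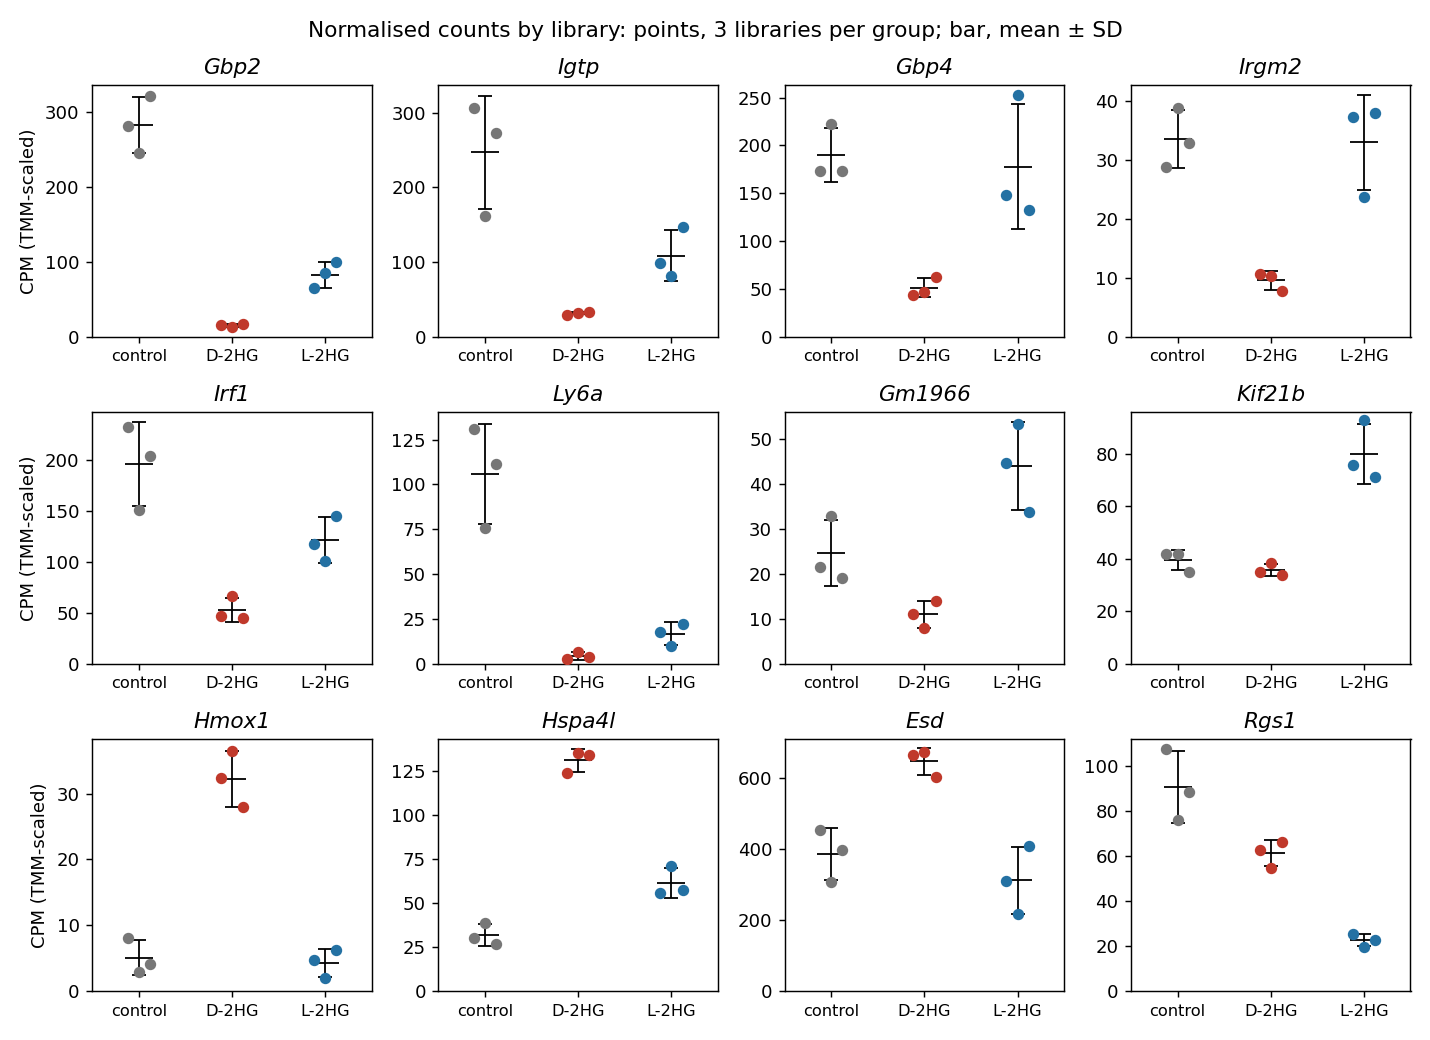
CPM (TMM-scaled) of 12 genes in each library: grey control, red D-2HG, blue L-2HG; points are libraries and bars the mean ± SD of 3. Gbp2, Igtp and Ly6a step down from control to L-2HG to D-2HG, Gbp4 and Irgm2 are low with D-2HG, Gm1966 and Kif21b are high with L-2HG, and Hmox1 and Esd are high with D-2HG.

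The 6 lower genes outside these lists were Cd55, Gm11346, Ifi213, Kif21b, Lsp1 and Plec. Kif21b, a kinesin motor, was the 1 gene of the 26 that D-2HG did not lower: it had 35.1, 38.4 and 33.9 CPM with D-2HG, 41.7, 41.7 and 35.1 in the controls and 75.7, 92.8 and 70.9 with L-2HG. D-2HG and control libraries overlapped, and L-2HG was above both (log2 0.99 against control, adjusted p = 0.0104). Cd55, which protects cells from complement, was the reverse: 11.4, 10.5 and 9.48 CPM with D-2HG against 23.4, 19.7 and 31.9 with L-2HG and 25.6, 23.7 and 26.2 in the controls. Only the D-2HG libraries of Cd55 stood apart. Lsp1, a leukocyte actin-binding protein, fell with both compounds, by 1.99 with D-2HG and 0.85 with L-2HG on the log2 scale, and the enantiomers differed by -1.14 (-1.64 to -0.64). Plec, the cytoskeletal linker plectin, and Ifi213, of the interferon-inducible p200 family, had differences of -1.52 and -1.76 and L-2HG changes from control of 0.31 and 0.02 that did not pass.

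Hmox1, heme oxygenase and a classical target of the oxidant-responsive factor NRF2, had the largest difference in the other direction among genes past the threshold. It had 32.3, 36.5 and 28 CPM with D-2HG, 4.75, 1.97 and 6.18 with L-2HG and 8.05, 2.91 and 4.16 in the controls. L-2HG and control overlapped and D-2HG stood above both: the log2 difference was 2.7 (1.86 to 3.54, edgeR adjusted p = 0.00172), 6.49-fold more with D-2HG, and the L-2HG libraries rest on 13, 1 and 13 counts. Esd, an esterase that acts on S-formylglutathione, had 665, 673 and 603 CPM with D-2HG against 310, 217 and 407 with L-2HG. It rose with D-2HG (0.75 against control), its change with L-2HG was -0.29 (adjusted p = 0.341), and the enantiomers differed by 1.04 (0.58 to 1.5, adjusted p = 0.0495).

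Over 15 tested of 19 listed NRF2 targets, these 2 passed (0.0489% of tested genes were higher), and the median log2 difference was 0.55. Leaving out 1 library gave 1 to 3 of the 15. All 15 were above 0, against 5213 of 10235 tested genes, and in 10 of the 15 the D-2HG libraries lay above every L-2HG library (7.77% of tested genes). Among those short of the threshold were Txnrd1 (thioredoxin reductase, 0.88), Srxn1 (sulfiredoxin, 1.12), Gclc (the catalytic subunit of glutathione synthesis, 0.76) and the ferritin chains Ftl1 (0.71) and Fth1 (0.53), with adjusted p from 0.12 to 0.68 by edgeR. Against control, 6 of the 15 rose with D-2HG (11.8% of tested genes did) and 1 with L-2HG (9.41% did). Txnrd1, with 383, 391 and 420 CPM with D-2HG, was above the L-2HG libraries (197, 261 and 197) and the controls (106, 205 and 150). Abcc1, an efflux pump for glutathione conjugates, rose with both, by 1.02 and 0.98, and its difference was 0.04.

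The other 3 genes higher with D-2HG came from other groups. Hspa4l, a member of the HSP110 chaperone family listed with osmotic stress genes, rose with both compounds: 124, 135 and 135 CPM with D-2HG, 55.9, 71.1 and 57.6 with L-2HG and 30.3, 38.8 and 26.6 in the controls. All 3 groups were apart, and the difference between enantiomers was 1.12 (0.68 to 1.56). Zfand2a, a proteasome-associated protein induced by arsenite, was at 25.5, 24.2 and 23.9 CPM with D-2HG against 10.2, 5.92 and 9.04 with L-2HG, with controls between at 15.6, 17.4 and 19.0. L-2HG lowered it (-0.93, adjusted p = 0.037), and D-2HG against control did not pass (0.50, adjusted p = 0.139). Rgs1, which shuts off chemokine receptor signals, fell with both, from 108, 76.1 and 88.3 CPM in the controls to 62.6, 54.8 and 66.4 with D-2HG (adjusted p = 0.0495) and to 25.2, 19.7 and 22.8 with L-2HG. Its 3 groups did not overlap, and the enantiomers differed by 1.39 (0.90 to 1.88).

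No heat shock chaperone of 16 tested passed by edgeR, with 3 higher with D-2HG at an unadjusted p under 0.05 (2.45% of tested genes were). DESeq2 passed 0 of them and limma-voom 2 (177 of 10235 tested genes). Even so, 15 of the 16 were above 0 (5213 of 10235 tested genes were), with a median of 0.35. In 11 the D-2HG libraries lay above all L-2HG libraries (7.77% of tested genes). Against control, 5 fell with L-2HG (8.3% of tested genes did), among them the mitochondrial pair Hspd1 (-0.76) and Hspe1 (-0.67) and Hsp90aa1 (-0.90), while 1 rose with D-2HG (11.8% did), Hsph1 (1.45). The D-2HG changes of Hspd1, Hspe1 and Hsp90aa1 were -0.41, -0.45 and -0.49 and did not pass. Ribosome biogenesis genes gave a like picture: none of 33 passed by edgeR, DESeq2 or limma-voom. At an unadjusted p under 0.05, 2 were higher with D-2HG (2.45% of tested genes were). Of the 33, 31 were above 0 (5213 of 10235 tested genes were), with a median of 0.23. The 95% interval of the difference lay inside 1 log2 unit either way in 31. This was so for 62.6% of tested genes and 94.0% of those at 100 CPM and over. Against control 11 of the 33 fell with L-2HG (8.3% of tested genes did) and 3 with D-2HG (10.5% did), while 2 rose with L-2HG (9.41% did) and 5 with D-2HG (11.8% did).

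**Figure D4:**
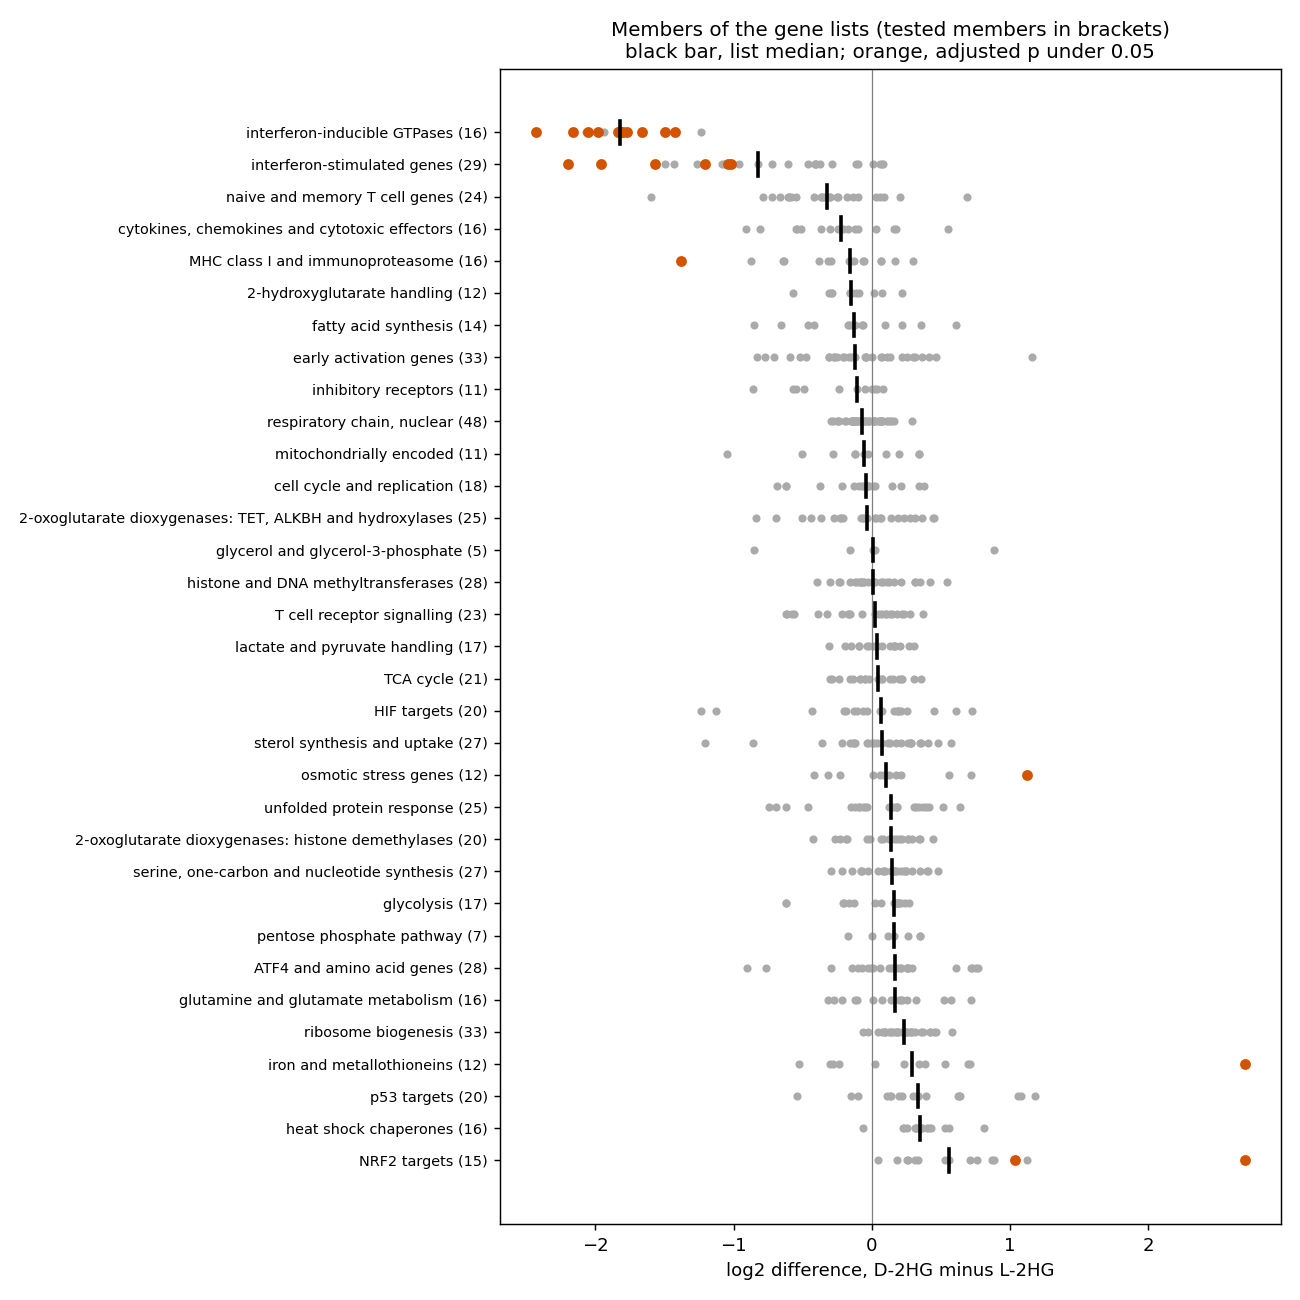
Log2 difference, D-2HG minus L-2HG, of each tested member of the gene lists (number tested in brackets); black bars are list medians and orange points have an adjusted p under 0.05. The GTPases lie wholly to the left of 0 and the NRF2 targets wholly to the right, while the respiratory chain is narrow around 0.

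For most genes the data bound the difference rather than show one. The 95% interval of the difference lay inside 1 log2 unit (2-fold) either way in 6408 genes (62.6%) and inside 0.58 (about 1.5-fold) in 1613 (15.8%). The precision followed the level: the median half-width of the interval was 1.26 under 5 CPM and 0.441 at 100 CPM and over, so that 0 of 1012 genes were bounded within 2-fold in the lowest class and 1882 of 2002 in the highest. No gene under 5 CPM passed the threshold.

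Among the lists, the nuclear-encoded subunits of the respiratory chain and of ATP synthase were bounded in every member. None of the 48 passed between the enantiomers by edgeR, DESeq2 or limma-voom, and 0 had an unadjusted p under 0.05. The median difference was -0.07. All 48 intervals lay inside 1 log2 unit, as did 62.6% of tested genes and 94.0% of those at 100 CPM and over. The list stood near that level, with a mean log2 CPM of 6.85 to 7.49 in the treated libraries. All 7 tested genes of the pentose phosphate pathway were bounded as well. Against the shared controls, 31 of the 48 were lower with D-2HG (10.5% of tested genes were) and 17 with L-2HG (8.3% were), with medians of -0.69 and -0.63. Measures of RNA quality moved with these falls from control. The 10 genes listed for RNA quality were mitochondrial transcripts and long nuclear RNAs such as Malat1. They summed to 19604 to 31994 CPM in the controls, 11468 to 16333 with D-2HG and 12951 to 16412 with L-2HG. The sum does not separate mitochondrial from nuclear transcripts. With D-2HG, 5 of the 10 were lower than control (10.5% of tested genes were) and 2 were higher (11.8% were). With L-2HG, 5 were lower (8.3% of tested genes were) and 2 were higher (9.41% were). The mean satellite share was 2.56% in the controls, 9.22% with D-2HG and 13.0% with L-2HG; the part of either in the falls was not tested. Ndufb8, a subunit of complex I, had 111, 112 and 103 CPM with D-2HG, 113, 75.0 and 127 with L-2HG and 236, 139 and 210 in the controls. Both treated groups lay below all controls and overlapped each other (0.01, -0.47 to 0.49). Of 21 genes of the tricarboxylic acid cycle, none passed by those 3 tools (0 at an unadjusted p under 0.05) and 20 intervals lay inside 1 log2 unit. The succinate dehydrogenase subunit Sdhc was lower than control with both, by -1.33 and -1.19.

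**Figure D5:**
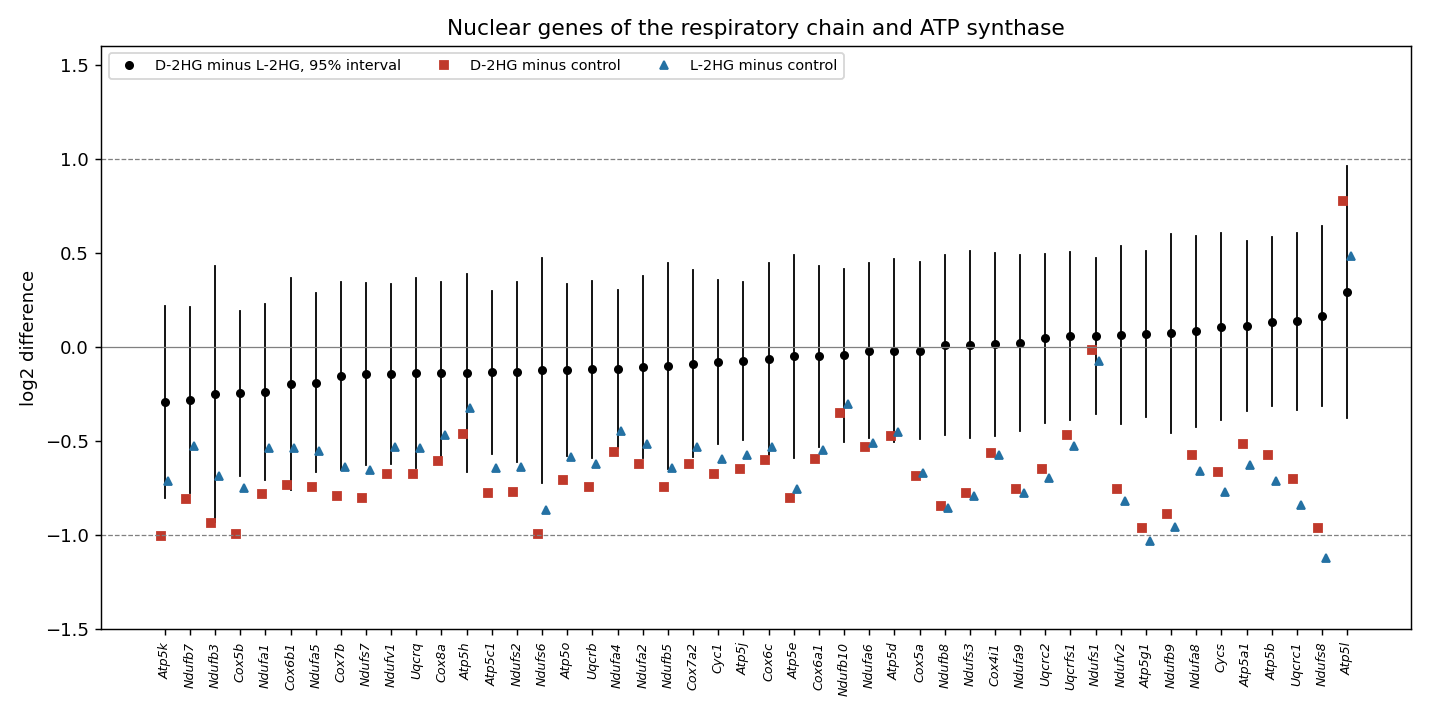
Log2 differences of the 48 nuclear respiratory chain and ATP synthase genes. Black points with 95% intervals are D-2HG minus L-2HG, and all lie between the dashed lines at -1 and 1. Red squares (D-2HG minus control) and blue triangles (L-2HG minus control) run together, mostly between -0.4 and -1.1.

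Some genes were picked because both compounds moved them the same way from the shared controls, each past the threshold, with an interval of their difference inside 0.5 log2 units. Their small differences follow from that choice and are given as a description. Rgs16, a relative of Rgs1 that turns off the same class of receptors, was the one furthest below control: 286, 338 and 251 CPM with D-2HG, 315, 280 and 261 with L-2HG and 734, 760 and 794 without either. The treated groups overlapped each other and lay far below the controls, and the difference between enantiomers was 0.03 (-0.36 to 0.42), where that of Rgs1 was 1.39. Next were Mrpl35 (mitochondrial ribosome), Anp32b (a histone chaperone), Cr1l (a complement regulator), Calm2 (calmodulin) and Ndufb8, with differences between -0.03 and 0.01. Among the higher genes were Med14 (Mediator), Lrrfip1, Csnk1g1 (a casein kinase), Chd3 (a NuRD remodeller), Trrap (a scaffold of histone acetyltransferases) and Wdr48 (a deubiquitinase cofactor), with changes from control of 0.79 to 0.94 and differences between -0.07 and 0.04.

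The enzymes that use 2-oxoglutarate were listed as histone demethylases and as other dioxygenases. None of 20 histone demethylases passed by edgeR, DESeq2 or limma-voom (0 at an unadjusted p under 0.05). Of their intervals, 17 lay inside 1 log2 unit (62.6% of tested genes did, a share that rose with the level). Against control 5 were higher with D-2HG and 7 with L-2HG (11.8% and 9.41% of tested genes were), with medians of 0.65 and 0.68. Kdm4c was at 29.9, 41.1 and 40.2 CPM with D-2HG against 28.9, 31.6 and 23.3 with L-2HG against 12.6, 17.4 and 7.8 in the controls, and Kdm2b rose by 1.56 and 1.27. The treated groups overlapped for both genes. Among 25 tested TET, ALKBH and hydroxylase genes none passed by those 3 tools, and 2 were lower with D-2HG at an unadjusted p under 0.05 (4.51% of tested genes were). Of these 25, 18 had an interval inside 1 log2 unit (62.6% of tested genes did). The lowest was Alkbh7, a mitochondrial member of the ALKBH family, with 8.60, 7.99 and 8.58 CPM with D-2HG against 13.5, 13.8 and 17.1 with L-2HG and 20.8, 13.6 and 22.3 in the controls. Its treated groups did not overlap (-0.84, -1.5 to -0.18, edgeR adjusted p = 0.53). The difference of D2hgdh, the dehydrogenase that removes D-2HG, was too uncertain at its low level to bound (-0.57, -1.82 to 0.68).

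No listed T cell activation gene passed between the enantiomers by edgeR, and not all were bounded within 1 log2 unit. The activation receptors Cd69 and Il2ra had differences of 0.06 (-0.37 to 0.50) and 0.26 (-0.12 to 0.64), and Myc, which drives growth, 0.22 (-0.24 to 0.67). The cytokine genes Tnf and Il2 were at -0.30 (-0.71 to 0.11) and -0.25 (-0.84 to 0.35), and the protease gene Gzmb at 0.55 (-0.40 to 1.51). Pdcd1, the inhibitory receptor PD-1, had 182, 222 and 263 CPM with D-2HG, 202, 172 and 251 with L-2HG and 634, 367 and 545 in the controls. The treated groups overlapped below all controls: Pdcd1 fell by 1.22 and 1.30 on the log2 scale, and the difference was 0.08 (-0.39 to 0.55). For glycolysis, Ldha (lactate dehydrogenase) and Hk2 (hexokinase) had differences of -0.31 (-0.78 to 0.17) and 0.27 (-0.18 to 0.72). No gene of 17 glycolytic genes passed by edgeR. At an unadjusted p under 0.05, 1 of the 17 was lower with D-2HG (4.51% of tested genes were). None of 33 early activation genes, 16 cytokine and effector genes or 11 inhibitory receptors passed by edgeR or DESeq2; 2 early activation genes were higher and 3 lower at an unadjusted p under 0.05 (2.45% and 4.51% of tested genes were), as was 1 lower gene in each of the other lists. limma-voom passed 1 early activation gene and 0 of the others (177 of 10235 tested genes passed). Intervals inside 1 log2 unit numbered 24 of 33, 9 of 16 and 8 of 11 in these lists (62.6% of tested genes). In 6 of the 33 early activation genes the D-2HG libraries lay above every L-2HG library (7.77% of tested genes). In 2 of the 33 they lay below (8.13% of tested genes).

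Naive and memory T cell genes lay mostly on the lower side with D-2HG without passing: 19 of 24 tested were below 0 (5022 of 10235 tested genes were), with a median of -0.33. At an unadjusted p under 0.05, 6 were lower (4.51% of tested genes were) and 1 was higher (2.45% were). DESeq2 passed 1 of these naive and memory genes (49 of all 43755 genes with a count) and limma-voom 4 (177 of 10235 tested genes). Dapl1, a marker of naive cells, came nearest with 4.1, 7.8 and 4.5 CPM with D-2HG against 19.4, 9.9 and 18.6 with L-2HG (-1.60, -2.38 to -0.82, edgeR adjusted p = 0.073). Its groups did not overlap. Il7r, the interleukin-7 receptor, rose from control with both compounds, by 1.06 with D-2HG and 1.73 with L-2HG, and differed by -0.67 (-1.08 to -0.25, adjusted p = 0.28), while Ccr9, a homing receptor, rose by 1.56 and 1.47 with a difference of 0.09 (-0.37 to 0.55).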

How the data were processed

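The deposited counts are whole numbers of reads per gene symbol, made by the authors with STAR 2.7.3a and featureCounts on mm10, per the submitters' processing notes; annotation release and strand are not given in the sources used here. A further deposited table holds signal values, counts divided by 1 factor per library (rescaled values lay within 6.56e-05 of the counts); it served to look up gene identifiers. Per the labels, cDNA was primed with oligo(dT), amplified by PCR and tagmented, with no molecular identifiers named, so intervals of shares cover counting error only.

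The tests ran in edgeR 4.0.16 (R 4.3.3). Of 55011 symbols, 11256 had no count and 10235 passed filterByExpr (minimum count 10). Libraries were scaled by TMM, and all 9 libraries entered 1 robust quasi-likelihood model of 3 group means (6 residual degrees of freedom), so controls add to the estimate of the spread. D-2HG was tested against L-2HG, and each against control; p-values were adjusted by Benjamini-Hochberg over every tested gene (threshold 0.05). The 95% intervals are those of each gene alone. The biological coefficient of variation was 0.210, and 1 pair of compounds was compared. Alternatives included DESeq2 1.42.0 and limma 3.58.1. Positions came from GENCODE M21 (GRCm38; 215 symbols had none) and promoters from RefSeq.

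Replicate numbers were not used to pair the libraries in the main model, since nothing in the labels says that they do. Named genes were the 10 largest differences each way among genes past the threshold with at least 5 CPM and non-overlapping ranges (predicted, Rik and pseudogene symbols left out), 17 fixed genes, the 3 members of smallest p past the threshold in each list, and the 6 largest changes each way shared by both compounds; other genes were named after their values were seen. Some genes that the counts include are not reported here. The members and lists were chosen with earlier results of these data known.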

Additional observations from a re-analysis of the deposited data

How the results depend on the processing

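Against 31 genes past the threshold (5 higher and 26 lower with D-2HG), DESeq2's Wald test gave 49 (13 and 36), limma-voom with sample weights 177 (39 and 138), the satellite share as a covariate 76 (16 and 60), thinning to the smallest library 8 (1 and 7), a minimum change of 1.5-fold 10 (1 and 9) and leaving out both libraries of high satellite share 13 (1 and 12). Genes higher with D-2HG numbered 3 with library totals in place of TMM, 8 without a count filter and 11 with only the 6 libraries of the enantiomers. Leaving out 1 library at a time gave 10 to 60 genes, 1 to 16 higher and 9 to 44 lower. Subtracting a background estimated from sensory receptor genes gave 31 genes, 29 of them shared. With the replicate number as a block, 35 genes passed (7 and 28), of which 29 were shared. Same-numbered D-2HG and L-2HG libraries deviated from their group means with correlations of 0.00841, -0.132 and -0.153. For control and L-2HG these were 0.0967, 0.283 and 0.123, and for control and D-2HG 0.0341, -0.172 and -0.116. With 3 libraries per group, such correlations cannot tell whether the numbers pair the libraries. The cause of these changes was not tested, except that thinning and left-out libraries reduce the data. All 31 genes kept their sign in every fit that tested them, which ranges without overlap made all but certain for left-out libraries. Of the 31, 9 passed with each library left out (among them Gbp2, Gbp4, Gbp8, Gm1966, Hmox1, Igtp, Irgm2 and Tgtp2), and 4 passed in all (Gbp2, Gbp4 and Igtp among them). The GTPase median ranged from -1.93 to -1.65 with 4 to 15 genes past the threshold, that of the interferon-stimulated genes from -1.04 to -0.60 with 1 to 8, the NRF2 median from 0.43 to 0.74 with 1 to 5, and no respiratory chain gene passed anywhere. Tightening the bound from 1 to 0.58 log2 units took the bounded genes from 6408 to 1613.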

Other observations

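Of 20 tested p53 targets none passed by edgeR, DESeq2 or limma-voom, with 4 higher and 1 lower with D-2HG at an unadjusted p under 0.05 (2.45% and 4.51% of tested genes were), and the median log2 difference was 0.33. Cdkn1a, the cell cycle inhibitor p21, had 196, 192 and 187 CPM with D-2HG, 138, 94.8 and 133 with L-2HG and 144, 92.1 and 134 in the controls. D-2HG was above both other groups, which overlapped; the difference was 0.62 (95% interval 0.18 to 1.06, edgeR adjusted p = 0.43), and against control Cdkn1a rose with D-2HG (0.63, adjusted p = 0.036). Bcl2, the survival factor, had 131, 142 and 146 CPM with D-2HG against 101, 77.0 and 79.4 with L-2HG, without overlap (0.69, 0.27 to 1.10, adjusted p = 0.26).

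Among amino acid genes, Slc3a2, the shared heavy chain of several amino acid transporters, had 914, 973 and 1064 CPM with D-2HG against 567, 480 and 701 with L-2HG and fell below control with L-2HG (-0.68, adjusted p = 0.038). Its groups did not overlap, and the difference of 0.75 (0.30 to 1.20) had an adjusted p of 0.24. Slc38a2, a transporter induced by amino acid shortage and by hypertonic medium, rose with both compounds, by 1.72 and 1.00. Of 28 histone and DNA methyltransferases, 9 rose with D-2HG against control (11.8% of tested genes did) while 8 did so with L-2HG (9.41% did). None of the 28 differed past the threshold between the enantiomers by edgeR, DESeq2 or limma-voom (0 at an unadjusted p under 0.05). Of their intervals, 25 lay inside 1 log2 unit (62.6% of tested genes did). These genes were chosen after their values were seen.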
